A study of Mus musculus with 7 samples.

Results

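The cells described here are the Mfap4 Sfrp1 fibroblasts of the mouse mesenteric lymph node (mLN), 1242 of the 17692 cells sequenced over 5 ages. They were chosen by their own unique molecular identifier (UMI) counts, a UMI being 1 counted mRNA molecule. Kept cells had 1000 to 4600 detected genes and at most 4.5% mitochondrial UMIs, which left 13197 cells, and 8935 of those carried no Pecam1 and at least 1 Col1a2 UMI. From these, the rule took cells with at least 5 UMIs over Mfap4, Sfrp1 and Agtr2. Cells with more than 2 Ccl19, more than 1 Pi16 or more than 1 Dpep1 UMI were left out, as were cells with 2 or more Rgs5 UMIs or 3 or more UMIs over Myh11, Actg2 and Cnn1. Every level of these 12 genes and of Cd34, which helps define the comparison cells, and every gene level of the cells so chosen set against another cell set, is therefore a description and carries no test. The tests given are of slopes over age, alone or as a difference from the slope of the comparison cells, and the rule did not use age. These genes stayed in the slope fits as part of the whole table, and nothing is read from their slopes.

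The study asked how the non-endothelial stromal cells (SCs) of the mLN change from birth to old age, and it set aside cells over-represented in the newborn node that it read as fibroblasts of adjacent tissue. Cells came from gut-draining mLNs of BALB/c mice kept under specific pathogen free conditions, were released with collagenase P, dispase and DNase I and sorted as CD45-CD24-. All groups share this strain, housing and sort, and no allele or treatment separates them. The labels give 1 library each for mice at day 0 (D0), day 10 (D10) and day 24 (D24), and 2 each for day 56 (D56) and day 300 (D300). The number of animals behind a library and their sex are not in the labels, cells of the same age stand in 1 pool in the counts, and age and library cannot be told apart. Cell names carry only the age and a running number, so barcodes shared between libraries could not be counted. Kept cells numbered 3713, 1967, 1719, 3682 and 2116 from D0 to D300.

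Lymph node stroma holds fibroblastic reticular cells (FRCs), which build the conduit network of the T cell zone and secrete the chemokines Ccl19 and Ccl21a, and CD34+ SCs, which line vessels and the capsule and carry markers such as Cd34, Pi16 and Ly6a. Fibroblasts of the surrounding mesentery and fat share many genes with CD34+ SCs. Around birth, many connective tissue fibroblasts express imprinted growth genes, such as Dlk1, Igf2 and H19, and switch them off after birth. Mfap4 encodes a glycoprotein of elastic microfibrils, Sfrp1 a secreted inhibitor of Wnt ligands, and Agtr2 the angiotensin II type 2 receptor, which is abundant in fetal mesenchyme.

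On GRCm38, the 3 genes that chose the cells lie apart. Mfap4 spans chr11:61485431-61488900 on the plus strand, Sfrp1 chr8:23411502-23449632 on the plus strand, and Agtr2 chrX:21484544-21489164 on the plus strand. Dlk1, an imprinted gene described below, spans chr12:109452823-109463336 on the plus strand. RefSeq promoter sequence was at hand for Agtr2 and Dlk1 and is shown because both genes mark the newborn cells. The 250 bases before each start are printed 5′ to 3′ from GRCm38.p6, chrX:21484374-21484623 and chr12:109452573-109452822, both on the plus strand. Capitals mark matches of the TATA motif TATAAA, of the CCAAT box motif or of the GC box motif GGGCGG, searched on both strands.
Agtr2: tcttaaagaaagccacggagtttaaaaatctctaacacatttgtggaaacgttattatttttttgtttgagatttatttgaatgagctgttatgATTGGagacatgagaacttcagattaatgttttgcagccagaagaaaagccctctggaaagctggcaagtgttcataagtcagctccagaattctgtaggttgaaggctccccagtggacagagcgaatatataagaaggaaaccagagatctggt
Dlk1: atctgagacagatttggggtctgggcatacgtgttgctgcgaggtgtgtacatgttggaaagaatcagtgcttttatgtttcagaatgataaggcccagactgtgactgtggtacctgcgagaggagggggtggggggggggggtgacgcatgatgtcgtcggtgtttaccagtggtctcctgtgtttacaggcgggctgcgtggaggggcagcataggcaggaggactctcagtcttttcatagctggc
The Agtr2 window had 38.4% G or C and 3 CpG pairs, and 1 CCAAT match on the reverse strand, 156 to 152 bases before the start. The Dlk1 window had 54.8% G or C, 8 CpG pairs and no match of the 3 motifs. Of 32851 mouse promoter windows, 12.4% held TATAAA, 33.8% CCAAT and 32.7% GGGCGG, so these letters are common and the matches describe the windows only. The RefSeq start of Agtr2 lies inside the gene span given above, so the end of its window is within that span.

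Mfap4 Sfrp1 fibroblasts were a large part of the newborn stroma and nearly absent in the adult node. In the newborn node they numbered 1153 and made up 36.7% (35.0 to 38.4) of the Pecam1-negative Col1a2-positive cells. Of the D10 cells 81 were members, a share of 5.66% (4.52 to 6.98), and of the D24 cells 6, a share of 0.602% (0.221 to 1.31). A single cell remained at D56, 0.0410% (0.00104 to 0.228), and likewise at D300, 0.108% (0.00274 to 0.602). Brackets here and after other shares are exact Clopper-Pearson 95% intervals, which, like the exact Poisson intervals of summed counts, cover counting error only and no spread between mice. The D0 share was 6.48 times that at D10, 60.9 times that at D24 and 894 times that at D56, the last with a counting interval of 160 to 35345 because it rests on 1 cell. As a share of all kept cells, the cells made up 31.1, 4.12, 0.349, 0.0272 and 0.0473% from D0 to D300. In a further run, each cell was thinned to 2000 UMIs and the marker minimum set to 2. The upper limits of the rule kept their UMI numbers and so were looser on the thinned counts. The shares were then 53.7% (1747 of 3256 cells), 13.4%, 4.74%, 0.432% (10 of 2317) and 0.867%, a D0 to D56 ratio of 124. These changes kept the order of D0, D10 and D24, and the unthinned intervals of D24, D56 and D300 overlap.

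The steps of the rule removed different cells at different ages. At D0, 2294 of 3144 cells met the marker minimum, 99 of those were lost to Ccl19, 837 to Pi16, 23 to Dpep1, 99 to Rgs5 and 83 to the smooth muscle genes. At D10, 416 of 1432 cells met it, and Ccl19 took 197, Pi16 74, Dpep1 38, Rgs5 20 and smooth muscle genes 6. At D24, 142 of 997 cells met it, and the Pi16 limit alone took 99, which left 17 cells after that step. The marker genes thus reached well beyond the chosen cells, and the Pi16 limit took the most of them at D0 and D24.

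Marker-positive cells were also most frequent at D0 among the cells that the rule excludes. Of all Pecam1-negative Col1a2-positive cells, the chosen cells included, 73.0% (71.4 to 74.5) had a marker sum of at least 5 at D0. The later ages held 29.1, 14.2, 2.50 and 0.974% (0.446 to 1.84). Pi16 cells are the comparison set, with no Pecam1, at least 1 Cd34 and at least 2 Pi16 UMIs (916, 144, 343, 841 and 119 cells from D0 to D300). Of these, 91.3% (89.2 to 93.0) met the same minimum at D0 and 47.9% (39.5 to 56.4) at D10. The shares of the 3 later ages were 27.7% (23.0 to 32.8), 3.92% (2.72 to 5.47) and 3.36% (0.923 to 8.38). The marker-positive share was thus lower at each later age in Pi16 cells too, and of neighbouring ages only D56 and D300 had overlapping intervals. Fewer cells of a kind and fewer marker UMIs per cell both lower such a share, and the rule does not separate them.

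**Figure D1:**
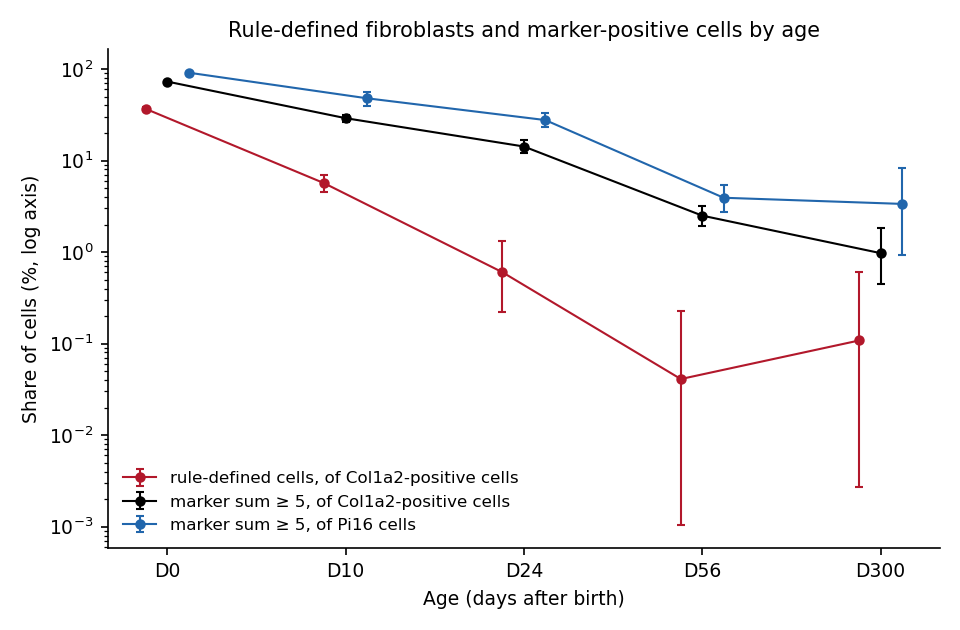
Share of cells in percent (log axis) against age for 5 ages, with bars for exact 95% intervals. Red shows the Mfap4 Sfrp1 fibroblasts (the rule-defined cells), from 36.7% at D0 to 0.0410% at D56, black all Col1a2-positive cells with a marker sum of at least 5 (73.0% to 0.974%), and blue the same minimum in Pi16 cells (91.3% to 3.36%).

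The median Mfap4 Sfrp1 fibroblast held 6737 UMIs at D0 (range 2228 to 20724) and 6587 at D10 (2156 to 12447), against 8242.5 and 8371.5 in Pi16 cells. The median number of detected genes was 2470 at D0 and 2404 at D10. Their pools held 8119000, 542796, 31119, 7491 and 2857 UMIs from D0 to D300. Levels below are CPM, a gene's summed UMIs scaled to a common total of its pool. Statements on single genes after D10 therefore rest on 8 cells.

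The label was then checked against genes that define the cells. Mfap4 reached 1698 CPM at D0 and 1743 CPM at D10 in Mfap4 Sfrp1 fibroblasts, against 2445 and 2240 in Pi16 cells and 144 and 137 in Ccl19 cells. The Ccl19 cells are Pecam1-negative Col1a2-positive cells with at least 3 Ccl19 and at most 1 Pi16 UMI and a marker sum under 5, so their low marker levels are fixed by that choice. In endothelial cells, defined by at least 2 Pecam1 UMIs, Mfap4 was at 243 CPM at D0. Sfrp1 stood at 420 and 252 CPM, against 439 and 145 in Pi16 cells and 42.9 and 21.9 in Ccl19 cells. Agtr2 stood at 479 and 164 CPM, against 471 and 125 in Pi16 cells and 19.4 and 2.90 in Ccl19 cells. So at D0 each of the 3 markers was about as high in Pi16 cells as in the cells chosen by them, Mfap4 higher. The growth factor gene Igf1 stood at 664 CPM against 583 in Pi16 cells at D0 and at 503 against 284 at D10, whereas Igf2 stood at 274 against 353 at D0 and 57.1 against 131 at D10. Cd34 was found in 90.3% of the cells at D0 (1041 cells) and 72.8% at D10 (59 cells). A Pi16 count of exactly 1, the most the rule allows, occurred in 34.1% (393 cells) and 23.5% (19 cells). The marker genes of the label therefore did not separate these cells from Pi16 CD34+ SCs at D0, and tissue of origin was not measured in these counts. The name Mfap4 Sfrp1 fibroblasts is used in that sense only.

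**Figure D2:**
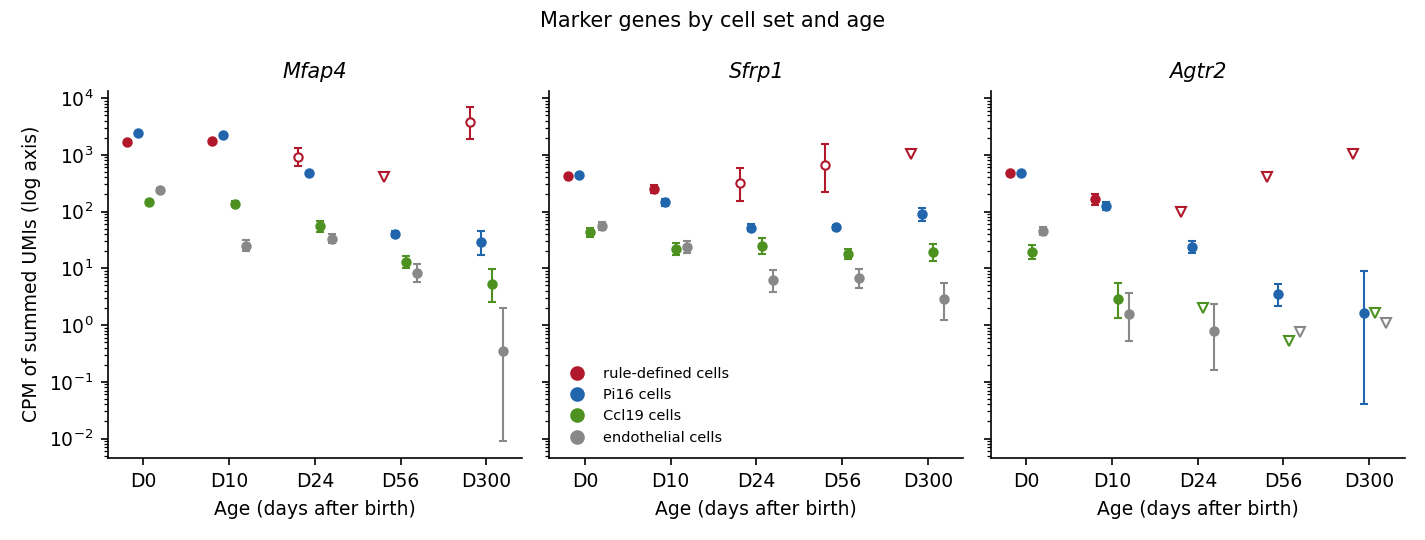
CPM of Mfap4, Sfrp1 and Agtr2 (log axis) against age in 4 cell sets, with bars for exact 95% Poisson intervals. Red is the Mfap4 Sfrp1 fibroblasts, where open circles at D24, D56 and D300 mark pools of 6, 1 and 1 cells, and open triangles mark sets with 0 counts, drawn at the level of 3 counts; in Pi16 cells Mfap4 goes from 2445 CPM at D0 to 29.0 at D300.

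Detection was also compared at equal depth, where Mfap4 was not lower than in Pi16 cells as it was by CPM. With cells thinned to 2000 UMIs, Mfap4 was detected in 82.0% of Mfap4 Sfrp1 fibroblasts, 80.0% of Pi16, 26.7% of Ccl19 and 23.2% of endothelial cells at D0, against 95.8, 95.2, 75.4 and 65.1% before thinning. At D10 the thinned shares were 84.0, 50, 24.9 and 3.05%. Endothelial cells (median 7624 UMIs at D0 and 7091 at D10) should lack the gene, so their share is given as the background. Free RNA and doublets were not told apart in it. Thinned Agtr2 was found in 46.1% of the fibroblasts, 50.2% of Pi16 and 6.4% of endothelial cells at D0, and in 9.88, 19.4 and 0.254% at D10. Thinned Sfrp1 was found in 44.5, 43.8 and 8.53% of the same sets at D0 and in 30.9, 16.7 and 2.28% at D10. At D10, thinned Agtr2 was thus less frequent in the fibroblasts than in Pi16 cells, whereas its CPM was higher, so no order is read for it.

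Within the fibroblasts, the 3 markers, which the rule used, occurred in different combinations. All 3 were present in 44.1% of cells at D0 (509 cells) and 9.88% at D10 (8 cells). Mfap4 with Sfrp1 but no Agtr2 made up 23.8% at D0 and 53.1% at D10, and Mfap4 alone 6.85% and 28.4%. Mfap4 gave 65.4% of the marker UMIs at D0 and 80.7% at D10, Sfrp1 16.2 and 11.7%, and Agtr2 18.4 and 7.59%. The marker sum per cell ran from 5 to 84 with a median of 14 at D0, and from 5 to 93 with a median of 9 at D10.

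Cells just inside and just outside the limits had similar levels at D0 and less similar levels in the few cells at D10. The 76 cells with a marker sum of 4 held 430 CPM of Igf1, 221 of Igf2 and 5446 of Dlk1. The 74 cells with a sum of 5 held 436, 271 and 5637 CPM of the same genes. At the Pi16 limit, the 393 cells with 1 Pi16 UMI held 681 CPM of Igf1 and 7019 of Dlk1, and the 194 cells with 2 Pi16 UMIs held 688 and 7084. At the Ccl19 limit, 58 cells held 2 Ccl19 UMIs and 12 cells that met every other limit held 3. At D10, Dlk1 stood at 652 CPM in the 22 cells with a marker sum of 4 and 1002 in the 15 with a sum of 5. It stood at 1353 CPM in the 19 cells with 1 Pi16 UMI and 448 in the 10 with 2, and at 604 CPM in the 11 cells with 2 Ccl19 UMIs and 160 in the 6 with 3.

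The 8 later cells varied widely. The 6 cells at D24 held 3178, 7157, 4474, 8954, 3290 and 4066 UMIs, with Mfap4 at 6, 4, 3, 0, 6 and 10 UMIs and Sfrp1 at 0, 1, 2, 7, 0 and 0. The D56 cell entered on 5 Sfrp1 UMIs with no Mfap4, and the D300 cell on 11 Mfap4 UMIs with no Sfrp1. Agtr2 and Igf2 were at 0 in all 8 cells. Decorin (Dcn), a collagen-binding proteoglycan, gave 40 to 130 UMIs in every one of them, and Igf1 1 to 13.

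Genes of matrix and imprinted genes were among the transcripts with high counts at D0. The nuclear noncoding RNA Malat1 stood at 33567 CPM, Dcn at 13891, Col3a1 at 9604 and Sparc, a collagen-binding matricellular protein, at 7845. Itm2a, a transmembrane protein gene, stood at 9988 CPM, the maternally expressed noncoding RNA Meg3 at 6787, and Dlk1, a non-canonical Notch ligand that restrains adipocyte formation, at 6464. Dlk1 UMIs were found in 99.4% of cells at D0, with a median of 42 per cell and a range of 0 to 219, and in 53.1% at D10, with a median of 1 and a range of 0 to 38. H19, another imprinted noncoding RNA, was found in 98.8% at D0 and 42.0% at D10, and Igf2 in 74.3 and 16.0%. Endothelial cells also held Dlk1 UMIs in 90.9% and Igf2 UMIs in 46.1% of cells at D0, and Ccl19 cells Dlk1 in 98.6%. With cells thinned to 2000 UMIs, Dlk1 was found in 96.5% of the fibroblasts, 67.6% of Ccl19 and 50.4% of endothelial cells at D0, and in 39.5, 19.5 and 2.03% at D10. Thinned Igf2 was found in 40.6% of the fibroblasts and 20.3% of endothelial cells at D0, and in 7.41 and 3.55% at D10.

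Against Pi16 cells at D0, the fibroblasts had like levels of most genes. Of 3048 genes with at least 50 CPM in either set, without those 13 genes, 23 were at least 2-fold higher (0.755%) and 16 at least 2-fold lower (0.525%). The median absolute log2 ratio over all genes was 0.11. Log2 ratios are of the fibroblasts over the other set, followed by 95% counting intervals where given, and with 1 pool per age no test was possible. Of the 16 lower genes, 5 were on the list of CD34+ SC genes. Ly6c1, a surface antigen gene, stood at 24.4 CPM against 146 (log2 ratio -2.58, interval -2.80 to -2.36). Before thinning, it was found in 8.93% of the fibroblasts, 35.3% of the deeper Pi16 cells and 5.34% of Ccl19 cells. Ly6a (Sca-1) stood at 127 CPM against 535 (-2.08), and Krtdap at 75.0 against 352 (-2.23). The chemokine scavenger receptor gene Ackr3 was lower too (-1.72). The elastic fibre genes Eln and Mfap5 stood at 1176 against 2638 CPM (-1.17) and 769 against 1701 CPM (-1.14). Sema3c (-1.22), Cd55 (-1.20), Scara5 (-1.33) and Gfpt2 (-1.30) were also lower. Because Pi16 itself divided the sets, genes that go with Pi16 had to differ in this direction.

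The higher genes at D0 were few and partly digestive. Of the 23, 12 belonged to the list of pancreatic acinar genes, such as the chymotrypsinogen gene Ctrb1 at 1223 against 447 CPM (1.45). The trypsin gene Prss1, at 102 against 35.3 CPM (1.53), was also higher and is not on that list. Of the 24809 acinar UMIs in the fibroblasts, 15112 sat in 4 of the 1153 cells, and in the top cell acinar genes made up 62.5% of all UMIs. The acinar sum was 3056 CPM with those 4 cells and 1201 CPM without them, beside 1085 in Pi16, 1013 in Ccl19 and 1053 in endothelial cells after the same step. Pyy, a gut and pancreatic hormone gene, stood at 64.7 against 8.80 CPM (2.88), and 84.2% of its UMIs (442 of 525) were in 1 cell. A further 17 cells had at least 5 Schwann cell UMIs and 7 at least 5 mesothelial UMIs, which made 28 cells (2.43%), against 6 of the Pi16 cells (0.655%). With those 28 cells left out, 5 of 3037 genes were at least 2-fold higher (0.165%), among them Pyy, Serpine2, Rgs16 and Chodl. Only 4 of the 23 genes were among these. The cell richest in Pyy was not one of the 28, so 523 Pyy counts stayed in, most of them in that 1 cell. The ratio of Chodl was 0.998 with all cells and 0.929 at a marker minimum of 3, both under 2-fold, and 1.14 at a minimum of 8. Serpine2, a protease inhibitor gene, stood at 150 against 48.7 CPM (1.62, interval 1.45 to 1.79). Before thinning, it was found in 30.1% of the fibroblasts, 19.2% of Pi16 cells and 12.8% of Ccl19 cells.

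Genes were also grouped by role at D0, where 0.755% of all genes were at least 2-fold higher than in Pi16 cells and 0.525% lower. At such shares, 0 called genes in a short list is no result about that list. Of 15 imprinted growth genes measured, 0 were 2-fold higher or lower, with a median log2 ratio of -0.09 beside 0.04 over all genes. Of 28 fibrillar collagen and collagen-processing genes, 0 passed 2-fold in either direction, yet 26 were lower, with a median of -0.24. Of 16 elastic fibre genes, Eln and Mfap5 were lower by at least 2-fold and the median was -0.28. At a marker minimum of 8 the ratio of Eln was -0.99, under 2-fold. The 10% of Pi16 cells richest in Eln held 60.8% of its UMIs, against 49.7% in the fibroblasts, and the medians per cell were 7 and 4 UMIs. Of 10 genes of the CD34+ SC list, 5 were at least 2-fold lower (Ackr3, Ly6c1, Ly6a, Sema3c and Mfap5) with a median of -1.07. Among 10 Wnt genes, 9 genes of the insulin-like growth factor (IGF) axis, 14 positional transcription factors and 6 FRC genes, none passed 2-fold, near the low shares over all genes. The medians of these lists were -0.06, -0.09, 0.03 and 0.10.

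At D10 the 81 fibroblasts differed from the 144 Pi16 cells far more. Of 3240 genes, 141 were at least 2-fold higher (4.35%) and 156 at least 2-fold lower (4.81%), and the median absolute log2 ratio was 0.28. The D10 pools were smaller, 542796 and 1201012 UMIs, and the part of counting error in this spread was not tested. Of the 16 genes lower at D0, 15 were also lower at D10 (93.8% of the D0 list and 9.62% of the D10 list). Of the 23 higher at D0, only Rgs16, a regulator of G protein signalling, was also higher at D10, at 92.1 against 19.2 CPM (2.27). Its D0 ratio of 1.05 was 0.80 at a marker minimum of 8 and 0.98 with TMM scaling of library sizes, both under 2-fold. Both ages used the same rule, so the shared lower genes are partly fixed by the Pi16 limit.

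Genes of the FRC, complement and antigen presentation lists were among the 141 higher genes at D10. Of 9 FRC genes measured, 5 were at least 2-fold higher: Ccl21a at 3826 against 811 CPM (2.24, interval 2.13 to 2.35, with most of the counts in 9 cells), the chemokine Cxcl12 at 4062 against 845 (2.27), Vcam1 at 438 against 217 (1.01), the methyltransferase gene Inmt at 275 against 47.5 (2.53) and the BMP antagonist Grem1 at 82.9 against 19.2 (2.11). Of 9 complement and acute phase genes, 4 were higher, among them C4b, C2 and Apoe, and Cd55 was lower. Apoe, a lipid carrier, stood at 11290 against 2629 CPM (2.10) and C4b at 267 against 42.5 (2.65). Of 9 genes of the major histocompatibility complex (MHC) list, 6 were higher, H2-K1 at 936 against 441 CPM (1.08) and H2-D1 at 1945 against 833 (1.22) among them. Of 8 interferon response genes 4 were higher (Ifit3, Gbp7, Ifi47 and Isg15), and of 10 cytokine and chemokine genes 4 (Cxcl1, Cxcl2, Cxcl10 and Cxcl12). The list medians were 1.01, 0.89, 1.22, 0.96 and 0.81, beside 0.01 over all genes.

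Perivascular genes and a few cells with very high Ccl21a moved with these D10 values. All 4 perivascular genes measured were at least 2-fold higher than in Pi16 cells (Acta2 322 against 115 CPM, Des 181 against 50.8, Tagln 497 against 127, Kcnj8 136 against 45.0), and the summed level of the whole list was 1295 CPM at D10 beside 615 at D0. Of the 81 cells, 9 had at least 10 Ccl21a UMIs. Those 9 held 25260 CPM of Ccl21a, 7285 of Cxcl12, 1298 of the matrix gene Vtn and 140 of Cd34, with no Pi16 UMI. The other 72 held 567 CPM of Ccl21a, 3572 of Cxcl12, 225 of Vtn and 441 of Cd34. Mfap4 was lower in the 9 (963 against 1861 CPM) and Dlk1 too (126 against 762 CPM), whereas Apoe was at 13481 and 10956 CPM. The part of perivascular or Ccl21a-rich cells in the D10 differences was not tested. The same limit in Pi16 cells left 137 of 144 cells, with 535 CPM of Ccl21a, 755 of Cxcl12 and 2386 of Apoe. Below the limit, Ccl21a was thus at 567 CPM in the fibroblasts and 535 in Pi16 cells, so its 2-fold difference was lost, and Cxcl12 and Apoe were still over 2-fold apart. The split was made after the values were seen, on Ccl21a itself.

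Genes of the CD34+ SC and elastic fibre lists were among the 156 lower genes at D10. Of 13 genes of the CD34+ SC list, 12 were at least 2-fold lower, with a median of -2.60. Krtdap stood at 11.1 against 341 CPM (-4.95, interval -6.40 to -3.81), Smpd3 at 9.21 against 241 (-4.71), the peptidase gene Dpp4 at 7.37 against 79.1 (-3.42) and Igfbp6 at 168 against 1141 (-2.77). Of 19 elastic fibre genes, 7 were lower (Eln, Fbn1, Mfap5, Fbln2, Efemp1, Emilin2 and Ltbp1) and 0 higher. The fibrillin gene Fbn1 stood at 190 against 1076 CPM (-2.50). Of 14 imprinted growth genes, 3 were at least 2-fold lower, namely Igf2 (-1.19), H19 (558 against 1753 CPM, -1.65) and Cdkn1c (243 against 1052 CPM, -2.11). At a marker minimum of 8 the ratio of Igf2 was -0.68, under 2-fold. Few D10 fibroblasts carried these values, with Igf2 UMIs in 13 of 81 cells, and 80.9% of H19 UMIs in the richest 10% of cells and 30.4% in 1 cell. Of 12 Wnt genes, Dkk2 and Rspo3 were higher and Sfrp2 and Sfrp4 lower, and Sfrp2 stood at 62.6 against 340 CPM (-2.44). Of 29 fibrillar collagen genes, 1 was at least 2-fold higher (Col12a1) and 3 lower, beside 4.35 and 4.81% over all genes.

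**Figure D3:**
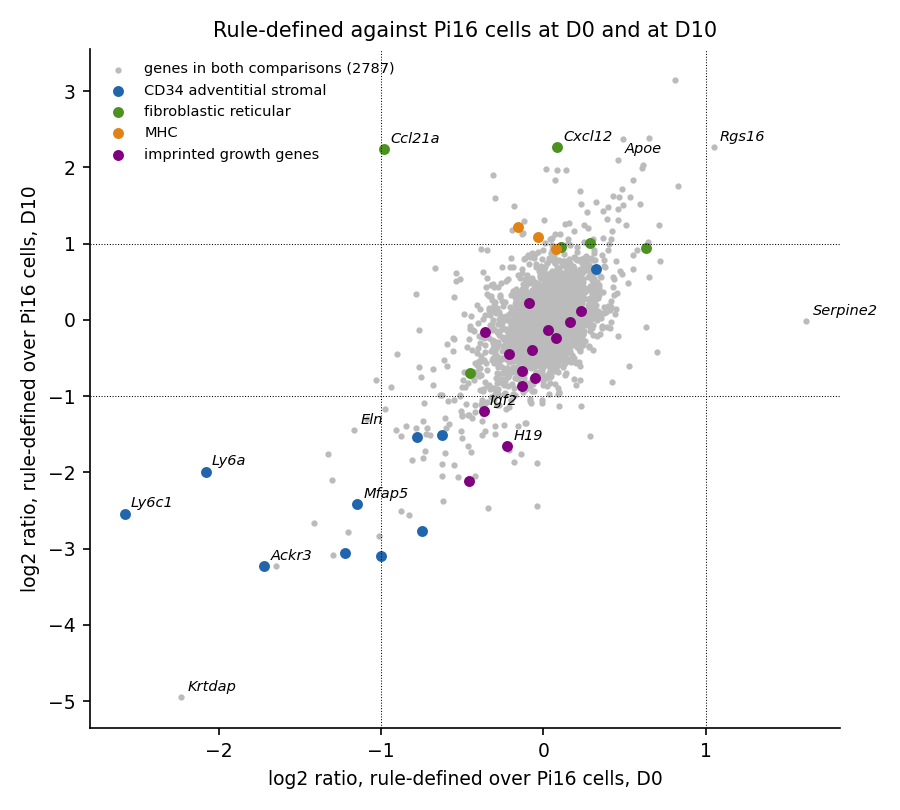
Log2 ratio of Mfap4 Sfrp1 fibroblasts (rule-defined) over Pi16 cells at D0 (horizontal) and D10 (vertical) for 2787 genes measured in both, with dotted lines at 2-fold. Genes of the CD34+ SC list lie at the lower left (Ly6c1 -2.58 and -2.54), whereas Cxcl12 (0.09 and 2.27) and Ccl21a (-0.98 and 2.24) lie high only on the D10 axis.

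Against Ccl19 cells, the fibroblasts differed in far more genes. At D0, 409 of 3313 genes were at least 2-fold higher (12.3%) and 246 lower (7.43%), against 281 Ccl19 cells. At D10, 305 of 3284 genes were higher (9.29%) and 161 lower (4.9%), against 370 Ccl19 cells. Matrix and growth genes were higher. Of 15 imprinted growth genes 14 were at least 2-fold higher at D0 (median 2.03), of 16 elastic fibre genes 14 (2.20), of 28 fibrillar collagen genes 16 (1.13) and of 13 proteoglycans 8 (1.58). Dlk1 stood at 6464 against 864 CPM (2.90), the growth factor gene Gdf10 at 175 against 8.36 (4.39), Aspn at 564 against 47.9 (3.56) and the collagen cross-linking enzyme gene Lox at 238 against 17.1 (3.80). Wnt genes were also mostly higher, 6 of 9 at D0, with Sfrp2 at 178 against 26.6 CPM (2.74) and Wnt5a at 69.2 against 11.8 (2.56).

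Genes of the FRC, MHC, complement and cytokine lists were mostly lower than in Ccl19 cells at D0. Of 11 FRC genes, 9 were at least 2-fold lower (median -3.74), with Ccl21a at 103 against 8161 CPM (-6.30). The B cell chemokine Cxcl13 stood at 30.9 against 412 CPM (-3.74), and Tnfsf11, the cytokine RANKL, at 7.39 against 229 (-4.96). The adhesion molecule gene Madcam1 was lower too (-4.78). All 10 MHC genes measured were lower (median -2.19), as were 6 of 7 complement and 7 of 11 cytokine and chemokine genes. Of the last list, Il6 alone was at least 2-fold higher, at 77.3 against 33.4 CPM (1.21). At D10, 4 of 11 cytokine and chemokine genes were at least 2-fold higher (Il6, Cxcl1, Cxcl2 and Cxcl10) and 2 lower (Il33 and Il1r1), with a median of 0.14. Immediate early and heat shock genes, a sign of digestion stress, moved with these values. Of 15, 5 were at least 2-fold lower than in Ccl19 cells at D0 and 0 higher (median -0.80), and at D10 3 were higher (Fosb, Atf3 and Ier2) and 0 lower (median 0.36). They summed to 17101 CPM at D0 in the fibroblasts and 29352 in Ccl19 cells, and to 15267 and 13245 CPM at D10. Of 5 perivascular genes 4 were lower at D0 as well. The part of stress or perivascular cells in these differences was not tested. Of the other lists at D10, 2 of 10 MHC genes and 0 of 8 complement genes were at least 2-fold lower (medians -0.59 and -0.13), while 9 of 14 FRC genes still were. Both the Ccl19 limit and the marker sum divided these sets, so genes that go with either had to differ.

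Between D0 and D10 the fibroblast pools showed lower growth genes and higher immune genes at the later age. The mix of cells that met the rule also differed. The FRC list summed to 2254 CPM at D0 and 9703 at D10. It took over 1% of the UMIs in 10 of 1153 cells at D0 and in 24 of 81 at D10. The part of this mix in the age differences was not tested. Of 3288 genes, 132 were at least 2-fold higher at D0 (4.01%) and 180 lower (5.47%), and in Pi16 cells 88 and 134 of 3159. Of 15 imprinted growth genes, 9 were at least 2-fold higher at D0 and 0 lower (median 1.54), and in Pi16 cells 7 and 0 (0.95). Dlk1 stood at 6464 CPM at D0 and 678 at D10 (3.25, interval 3.11 to 3.40), and in Pi16 cells at 7066 and 1080 (2.71). Cdkn1c, a cyclin-dependent kinase inhibitor, stood at 2151 and 243 CPM (3.14), H19 at 3080 and 558 (2.46) and Igf2 at 274 and 57.1 (2.26). Mest stood at 1966 and 575 CPM (1.77). Igf1 differed less, with 664 and 503 CPM (0.40).

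Complement and MHC genes had the opposite order. All 8 complement and acute phase genes measured were at least 2-fold lower at D0 (median -2.76), and 5 of 8 in Pi16 cells (-1.40). C3, the central complement component, stood at 71.2 CPM at D0 and 1109 at D10 (-3.96), C4b at 10.6 and 267 (-4.66) and Apoe at 910 and 11290 (-3.63). Apoe gave a median of 4 UMIs per cell at D0 and 53 at D10, where every cell held at least 2 and the highest 325. All 9 MHC genes were lower at D0 (median -2.20), H2-D1 at 249 and 1945 CPM (-2.97) and B2m at 880 and 2596 (-1.56). In Pi16 cells 5 of 6 were. Of 9 FRC genes, 6 were lower at D0 (median -1.34), among them Ccl21a at 103 and 3826 CPM (-5.21), and in Pi16 cells 2 of 6. The D10 level of Ccl21a was 567 CPM without the 9 cells that held the most of it. Of 4 perivascular genes, 3 were also at least 2-fold lower at D0 (Des, Tagln and Kcnj8, list median -1.23). In Pi16 cells 0 of 4 were, with a median of 0.59. The part of perivascular cells in the age differences was not tested. Cxcl12 went in opposite directions, with 1307 and 4062 CPM in the fibroblasts (-1.64) and 1231 and 845 in Pi16 cells (0.54). For D0 and D10 alone, with 1 pool per age and set, the difference between the sets in these age differences carries no test, and the difference in slope over all 5 ages is tested with the slopes.

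Matrix genes were counted in the same way, beside 4.01% higher at D0 and 5.47% lower over all genes. Of 28 fibrillar collagen genes, Cthrc1 alone was at least 2-fold higher at D0 and Pcolce alone lower, and of 17 elastic fibre genes Fbln2 alone was higher. Of 12 basement membrane genes, 3 were at least 2-fold higher at D0 and 1 lower (median -0.20). Col1a1 stood at 7467 and 8819 CPM (-0.24), Mfap2 at 1670 and 1903 (-0.19) and Mfap5 at 769 and 665 (0.21). In Pi16 cells Mfap5 stood at 1701 and 3549 CPM (-1.06). Of the CD34+ SC list, 3 of 9 genes in the fibroblasts and 9 of 13 in Pi16 cells were at least 2-fold lower at D0. Immediate early and heat shock genes showed no 2-fold difference in any of 15 genes. Acinar genes met the CPM minimum through D0 alone, so all 12 measured had to be higher there. Their summed level was 3056 CPM at D0 and 12.9 at D10. Without the 4 cells richest in acinar RNA, the D0 level was 1201 CPM. In all endothelial cells the acinar sum was 1066 CPM at D0 and 26.6 at D10. The Y-linked gene Ddx3y was at 0 in all D0 sets and at 70.0 CPM in the D10 fibroblasts, and the X-inactivation RNA Xist stood at 1103 and 212 CPM. Pi16 cells of the same ages held 1063 and 147 CPM of Xist. The labels give no sex, and the study's methods give female mice as the default. Y-linked UMIs were nonetheless present in the D10 fibroblasts. Sex, age and library cannot be told apart in this comparison.

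**Figure D4:**
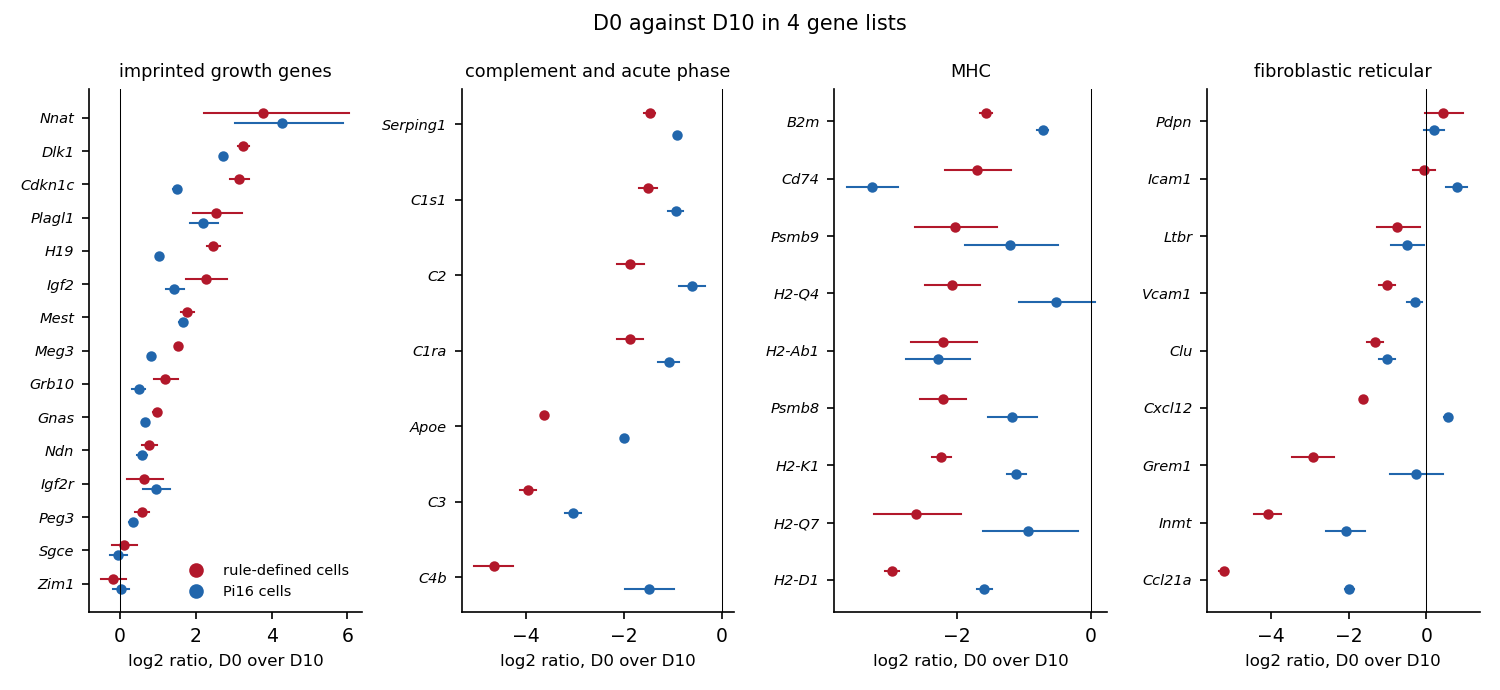
Log2 ratio of D0 over D10 for measured genes named from 4 lists in Mfap4 Sfrp1 fibroblasts (red, rule-defined) and Pi16 cells (blue), with bars for 95% counting intervals and a line at 0. Imprinted genes lie mostly right of 0 (Dlk1 3.25 and 2.71), complement and MHC genes left of it (C4b -4.66 and -1.48), and Cxcl12 on both sides (-1.64 and 0.54).

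A slope over all 5 ages could be tested, with age scaled as log2(day + 1) and the spread taken from the departure from a straight line. With edgeR's quasi-likelihood test, 1 of 223 genes tested passed an adjusted p of 0.05 (0.448%), and 19 had an unadjusted p under 0.05. That gene was Itm2a, which fell by 0.59 log2 units per unit of log2(day + 1), edgeR adjusted p = 0.0303. It stood at 9988, 2964, 1832, 534 and 350 CPM from D0 to D300, the last 2 values on 4 counts and 1 count. In Pi16 cells Itm2a stood at 13102, 5589, 1793, 370 and 134 CPM, so both sets held the same order of ages. DESeq2 called 8 genes for the slope, and edgeR called 0 without D0 or without D10. The next genes by edgeR, Dpt (slope 0.24) and Ifitm3 (0.24), each had an edgeR adjusted p of 0.236. The difference in slope from Pi16 cells passed for 0 of 665 genes (0%), with 23 at an unadjusted p under 0.05, and DESeq2 also called 0, with 15. The smallest edgeR adjusted p was 0.811, the value of Igf1 (slope difference 0.22) and P3h3 (0.22) among others. Both tests rest on late pools of 6, 1 and 1 cells, and without D300 edgeR called 32 genes for the slope and 11 for the difference, among the 11 the marker gene Sfrp1, which the rule used.

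Genes apart from Pi16 cells at all 5 ages were sought among 2132 genes with at least 50 CPM in the higher set throughout. None was at least 2-fold higher (0%) or lower (0%) in each age. A gene with 0 counts in the fibroblasts entered at 3 counts, which in the small pools of D56 and D300 can by itself set the direction to higher, so the higher genes are not described. Among the 324 genes with ratios of 1 sign at all 5 ages, so counted, Ly6c1 had the lowest median log2 ratio, -2.54, with -2.58 at D0 and -2.54 at D10, and 0 counts at D300. Cd248 (endosialin, a pericyte and fibroblast surface protein) followed with -1.51, then Ugdh (-1.32), Gfpt2 (-1.30) and Mfap5 (-1.14). At D56 and D300 these 5 genes had 0 to 3 counts in the fibroblasts at each age.

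Cycling cells were present at D0 and D10. After thinning to 2000 UMIs, 13.0% of the D0 fibroblasts (11.1 to 15.1) and 8.64% of the D10 fibroblasts (3.55 to 17.0) held at least 2 UMIs over 12 cell cycle genes, against 35.3 and 17.3% unthinned. The thinned share was 10.9% (8.97 to 13.1) at D0 and 2.78% (0.762 to 6.96) at D10 in Pi16 cells, 29.5% (24.3 to 35.2) and 10.8% in Ccl19 cells, and 17.9 and 19.3% in endothelial cells. The fibroblast and Pi16 intervals overlapped at both ages, and at D0 the Ccl19 share lay above both. At D24, 0 of 6 cells met the limit, which at 3 counts of the total allows a share of up to 50% (exact upper limit 45.9%). Top2a, a topoisomerase of dividing cells, stood at 70.6 CPM at D0 and 20.3 at D10 in the fibroblasts.

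Clustering of the 1153 D0 cells, given only as a description, parted them by matrix, stress and cell cycle genes and by genes of other cells. The largest of 7 clusters (418 cells, 36.3%) led with Stmn2, Cxcl12 (2198 CPM) and Krtdap. The second (230 cells, 19.9%) led with Pyy and acinar genes, with 12040 CPM of acinar RNA and Sfrp1 at 146 CPM, the lowest of the 7. It held all 4 cells rich in acinar RNA and the cell with 442 of its 458 Pyy UMIs, and without those 4 cells its acinar sum was 1449 CPM, beside 1003 to 1292 in the other clusters. The third (179 cells, 15.5%) led with the chemokines Ccl2 and Ccl7 and with Maff and Hsph1, and held 28289 CPM of immediate early and heat shock genes. The fourth (119 cells, 10.3%) led with Meox2, Col18a1 and Igfbp6 and had the highest Agtr2 (842 CPM) and the lowest Mfap4 (666 CPM). The fifth (107 cells, 9.28%) led with cell cycle genes and had the highest median depth, 9608 UMIs, and 425 CPM of Schwann cell genes. The sixth (64 cells, 5.55%) led with C1qtnf3, Fibin, Tgfbi and Aspn and had the highest Mfap4 (3214 CPM) and Igf1 (1494 CPM). The seventh (36 cells, 3.12%) led with Angptl7 and Clu, with 886 CPM of mesothelial genes and the lowest Agtr2 (55.4 CPM). Dlk1 was high in all 7, between 4240 CPM in the third and 8859 in the sixth. At a finer resolution the cells fell into 12 clusters, 1 of them 16 cells led by Schwann cell genes, with 318 CPM of Dlk1. No cluster was given a cell type name, no doublet caller was run, and depth differed between clusters.

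**Figure D5:**
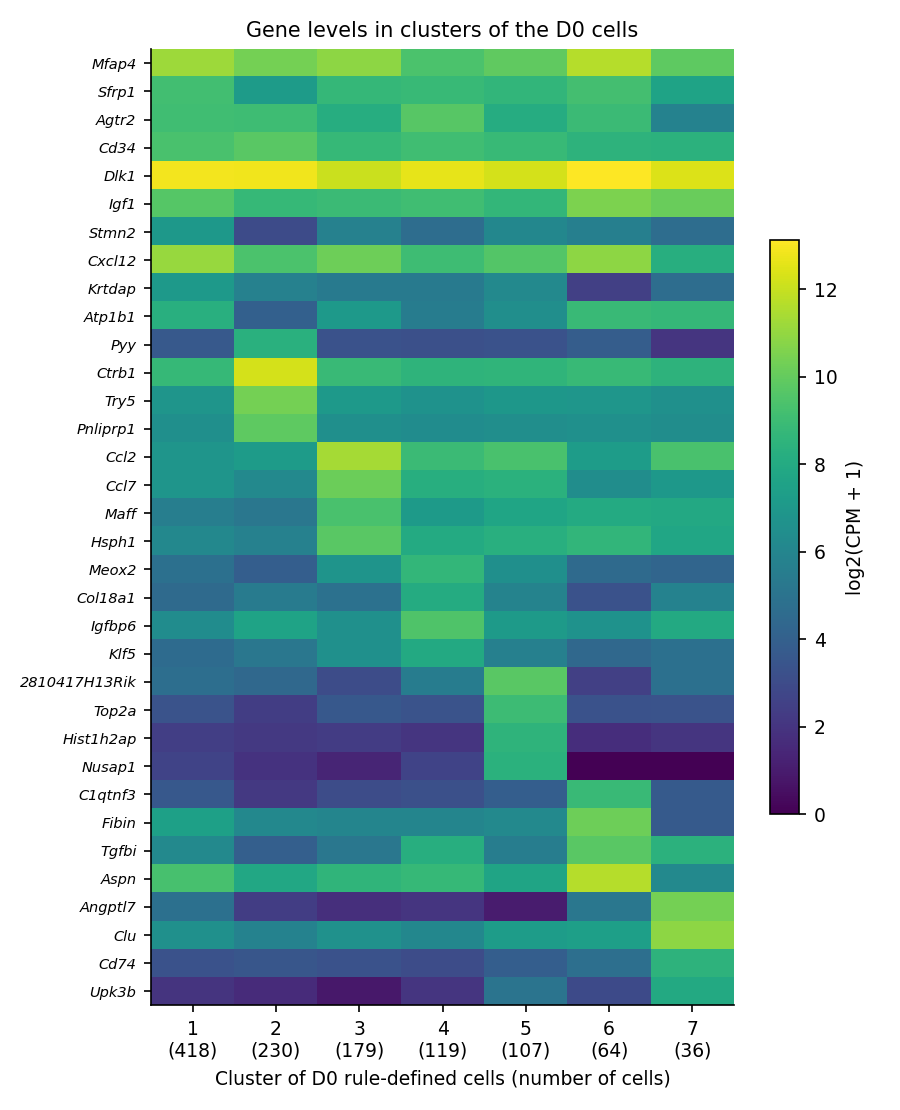
Levels as log2(CPM + 1) of marker genes and leading genes (rows) in the 7 clusters of the 1153 D0 Mfap4 Sfrp1 fibroblasts (columns, with cell numbers). Dlk1 is high in every column (4240 to 8859 CPM), whereas acinar genes, mostly from 4 cells, lead the second column, chemokine genes the third and cell cycle genes the fifth.

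Markers of other cells were low apart from those given above. The endothelial list summed to 82.9 CPM at D0 and 162 at D10, with Pecam1 at 0 by the rule. In endothelial cells it summed to 6068 and 5995 CPM, which include the Pecam1 UMIs that chose them. The blood cell list summed to 19.6 and 7.37 CPM, with Ptprc at 0 at D10, and the erythroid list to 7.27 and 1.84 CPM. The mesothelial list summed to 176 and 201 CPM, beside 125 and 249 in Pi16 cells, and the Schwann list to 743 and 621 CPM.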

How the data were processed

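The authors deposited 1 table of raw UMI counts per gene symbol and cell (27998 genes, 10x Chromium Single Cell 3′ v2, NextSeq 500), made with Cell Ranger 2.0.0 and STAR on mm10 per the submitters' processing notes, with the cells of each age merged. No column carries a library number, so each age is 1 pool. The number of mice per library is not given in the sources used here. The deposited counts held 29430992, 14883379, 12658225, 23089081 and 10116247 UMIs in kept cells from D0 to D300. The study's figure legends and the labels differ on the number of D300 libraries.

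Members, gene lists and comparison sets were chosen with earlier results of these data known. Counts of each cell set were summed per age and scaled to CPM on the pool total. Genes with at least 50 CPM in the higher set were compared, without the 13 rule genes; at least 2-fold apart counted as called, and log2 ratios carry exact conditional binomial 95% intervals. A count of 0 entered at 3 counts. Named genes were the 10 highest and 10 lowest median ratios over 5 ages, the 10 called slopes each way or else the largest D0 to D56 ratios, genes of 31 lists, and rule genes, with others named for size of ratio after values were seen. Ccl19 cells were Col1a2-positive with at least 3 Ccl19 UMIs, at most 1 Pi16 UMI and a marker sum under 5.

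Shares per cell used thinning to 2000 UMIs (seed 1). Slopes on log2(day + 1) used edgeR 4.0.16 (filterByExpr, minimum count 10, TMM, quasi-likelihood, Benjamini-Hochberg) with R 4.3.3, and DESeq2 1.42.0 as an alternative; p-values there measure departure from a line over 5 pools. D0 cells were clustered with scanpy 1.11.5 (Leiden). Python 3.11.15, numpy 2.4.6, scipy 1.17.1 and matplotlib 3.10.9 were used. Scripts were tested on simulated data. Positions are from GENCODE vM21 (GRCm38), promoters from RefSeq (GRCm38.p6). No doublet caller was run; cells of highest depth were left out as an alternative. Alternatives on single ages, on cells with acinar, Schwann or mesothelial genes and on members without Pi16 were added after seeing the data. Some genes of the lists are not reported here by name.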

Additional observations from a re-analysis of the deposited data

How the results depend on the processing

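No paired analysis was possible because the D56 and D300 libraries share replicate numbers in the labels while the count columns carry none. The D0 to D56 share ratio, 894 as reported, was 124 with cells thinned and the marker minimum at 2, and kept its direction under all alternatives. The upper limits of the rule were not scaled in that thinned run. Genes at least 2-fold from Pi16 cells at all ages, 0 as reported, numbered 2 with a marker minimum of 3, 5 with TMM scaling, 16 over D0 and D10, 8 over D0, D10 and D24, and 0 to 9 with 1 age left out (9 without D0, 1 without D24, 3 without D300), where a count of 0 entered as 3 counts; a minimum of 8 gave no value. Genes 2-fold apart at D0, 39 as reported with 41.0% lower, numbered 19 at a minimum of 8 (78.9% lower), 23 without the 5% deepest cells (69.6%) and 22 with acinar, Schwann and mesothelial cells left out of both sets (72.7%). Ctrb1 changed sign at D0 with a minimum of 8 (-0.019). Slope calls, 1 as reported, numbered 8 with DESeq2, 143 without a filter, 0 for D0 to D24 against later ages and 0 to 32 with 1 age left out (0 without D0 or D10, 3 without D24, 9 without D56, 32 without D300); slope differences, 0 as reported, numbered 11 without a filter and 0 to 11 with 1 age left out. A slope at a minimum of 8 was not run, since the D56 pool was then empty. The cycling share, 13.0%, was 33.0% at 1 UMI and 35.3% unthinned. The causes were not tested. Counts at D10, against Ccl19 cells and between D0 and D10 stayed within 1.5 times. Of 184 named values, 141 moved by less than the counting error, 42 by more and 1 reversed.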

Other observations

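Single genes in the D0 to D56 comparison rest on 1 adult cell of 7491 UMIs. Genes with a D0 excess included Itm2a with 81095 counts at D0 and 4 at D56, Mest with 15961 and 1, and Tubb5, a tubulin gene, with 9291 and 1. Dlk1 (52481 counts), Ptn (32087), a heparin-binding growth factor gene, and H19 (25005) had 0 counts at D56. Kcnk3, a potassium channel gene, stood at 66.3 CPM in the D10 fibroblasts and 5.00 in Pi16 cells (log2 ratio 3.73), and Ngfr, the p75 neurotrophin receptor gene, at 88.4 and 9.99 (3.15). At D0 Kcnk3 stood at 39.7 and 25.2 CPM and Ngfr at 130 and 74.3. Before thinning, Ngfr UMIs were found in 44.1% of the fibroblasts and 62.6% of Ccl19 cells at D0, and in 35.8 and 52.4% at D10. Kcnk3 UMIs were found in 17.9 and 20.6% of the same sets at D0, and in 23.5 and 14.9% at D10. Cxcl5, a neutrophil chemokine gene, had 39 counts in the D10 fibroblasts and 3 in Pi16 cells, or 4.85 on the log2 scale (interval 3.19 to 7.18), and 71.8% of those counts were in 1 cell. These 3 genes were named after their values were seen.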
